A study of Mus musculus with 8 samples.

Results

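The genes described here are the chemokines and chemokine receptors of the mouse. They were taken from a liver RNA sequencing table by symbol alone, as every row whose name is Ccl, Cxcl, Cx3cl, Xcl, Ccr, Cxcr, Cx3cr or Xcr followed by a number and at most 1 letter. The rule found 58 of the 37583 rows, 39 of them ligands and 19 of them receptors. The 58 rows carry 57 different names, because Ccl25 is listed on 2 rows, and 1 of those rows is at 0 in every library.

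Chemokines are small secreted proteins that steer leukocytes along a concentration gradient, and they act through receptors that couple to inhibitory G proteins. Families are named after the spacing of the first cysteines of the ligand, as CC, CXC, CX3C and XC, and CXC ligands with an ELR motif before the cysteines mainly attract neutrophils. In the liver, resident macrophages, endothelium, stellate cells and hepatocytes produce chemokines, and injury is known to bring in monocytes, neutrophils and lymphocytes that carry the receptors.

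The study holds 8 libraries of liver messenger RNA from C57BL6/CBA mice that were 8 months old. PR-SET7_LOBE (4 libraries, genotype PR-SET7_LX_ALB_CRE) comes from mice in which the histone methyltransferase PR-SET7 was inactivated in hepatocytes through a Cre driven by the albumin gene, so the other cells of the liver keep it; the labels do not explain the word LOBE. DEN_WT (2 libraries) comes from wild type mice that received an intraperitoneal injection of the liver carcinogen diethylnitrosamine on day 15 of life, at 25 ml per kg of a solution whose concentration is not given. WT (2 libraries) comes from untreated wild type mice. The labels do not say that the libraries of a group are separate animals, so p-values measure the spread between these libraries and that spread may be technical.

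The deposited table holds whole numbers per gene that the authors had already scaled between libraries, which are called normalised read counts here. In 4 of the columns every low value lies on a multiple of 1 fixed step, which is what 1 read is worth. From these steps the libraries hold an estimated 5295511 to 11872945 reads in PR-SET7_LOBE, 27995439 and 26060043 in DEN_WT and 6807527 and 11167878 in WT. The steps under 1 had to be estimated and those of DEN_WT are the least certain, so the reads given for such libraries are approximate. A gene with 3 reads has a value of 2.34 to 5.5 in PR-SET7_LOBE, 1.08 and 1.24 in DEN_WT and 6.06 and 4.33 in WT, so a low chemokine is less well measured in WT than in DEN_WT. Of the 58 members, 1 had no read in PR-SET7_LOBE, 4 had none in DEN_WT and 12 had none in WT, while 48 had 10 reads or more in PR-SET7_LOBE, 44 in DEN_WT and 19 in WT. Setd8, which encodes PR-SET7, had 667, 600, 516 and 510 normalised read counts in the libraries labelled PR-SET7_LOBE, 452 and 485 in DEN_WT and 542 and 607 in WT, with a PR-SET7_LOBE over WT log2 fold change of -0.01 (limma, SE 0.30, adjusted p = 0.992). Which exons were deleted is not stated, so this value of the whole gene does not check the genotype, and PR-SET7_LOBE stands throughout for the libraries so labelled. Across all genes, the correlation of log2 values was 0.872 to 0.947 within PR-SET7_LOBE and 0.852 to 0.94 between PR-SET7_LOBE and WT. It was 0.978 within DEN_WT, 0.82 to 0.839 between DEN_WT and WT and 0.784 to 0.851 between DEN_WT and PR-SET7_LOBE. The DEN_WT libraries also hold the most reads. In comparisons with DEN_WT the treatment cannot be told apart from anything else that sets these libraries apart. The first PR-SET7_LOBE library was lowest of the 4 in 18 of the 39 tested members, against 5, 2 and 11 in the others. The comparisons are given with and without it. That library was picked by the values of these same members, so calls made without it only describe the data and support nothing. Which property of that library differs was not tested.

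Each gene was compared between groups with limma on log2(normalised read count + 2), fitted over all genes and all 8 libraries, and p-values were adjusted over the 17362 genes that passed a filter on low values. A gene is said to have risen or fallen where its adjusted p was under 0.05. Fold changes are on this scale, which understates the change of genes with low values. The filter was passed by 39 members, 23 ligands and 16 receptors. The other 19 stayed at or below a value of 18 in every library, and they were the row of Ccl25 at 0, Ccl1, Ccl8, Ccl11, Ccl12, Ccl17, Ccl21a, Ccl21b, Ccl21c, Ccl22, Ccl26, Ccl27b, Cxcl2, Cxcl3, Cxcl15, Xcl1, Ccr7, Ccr8 and Cxcr1. A member could pass the filter through 1 group in which it is high, so counts over the tested members describe the data and support nothing by themselves. The labels give liver as the tissue and no sorting of cells, and in such a sample fewer cells of a type and less RNA per cell cannot be told apart.

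**Figure D1:**
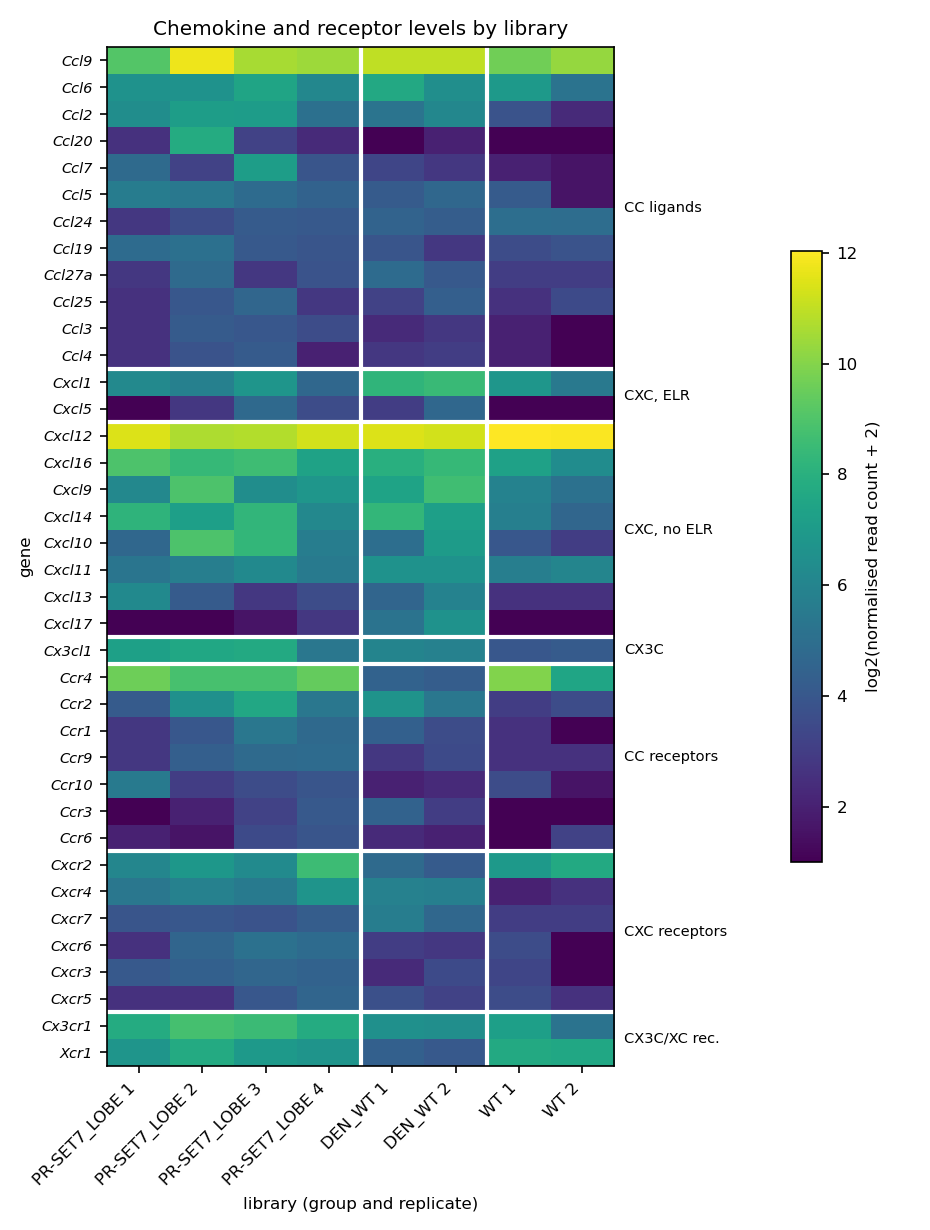
Levels of 38 members that passed the filter, as log2(normalised read count + 2), with 1 column per library (PR-SET7_LOBE, DEN_WT, WT) and 1 row per gene, ordered by family. Ccl9 and Cxcl12 are bright in every library, Ccr4 and Xcr1 are dark in the 2 DEN_WT libraries, and Cxcr4 and Ccl2 are darkest in the 2 WT libraries.

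Promoter sequences are shown for 6 members, chosen because they are inducible ligands or because their transcripts are the ones described most below. Each is the stretch of 250 bases before the transcription start from the RefSeq table of build GRCm38.p6, read 5′ to 3′ on the strand of the gene, and the capitals mark matches to the kappaB consensus, the interferon-stimulated response element (GAAA, any 2 bases, GAAA) or the AP-1 element TGANTCA.
Cxcl1, chr5:90890995-90891244, plus strand: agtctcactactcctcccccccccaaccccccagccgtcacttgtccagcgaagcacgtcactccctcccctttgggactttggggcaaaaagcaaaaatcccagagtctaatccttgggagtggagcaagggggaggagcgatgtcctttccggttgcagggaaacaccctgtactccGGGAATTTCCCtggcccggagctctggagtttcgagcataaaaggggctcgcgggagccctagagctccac
Cxcl2, chr5:90903649-90903898, plus strand: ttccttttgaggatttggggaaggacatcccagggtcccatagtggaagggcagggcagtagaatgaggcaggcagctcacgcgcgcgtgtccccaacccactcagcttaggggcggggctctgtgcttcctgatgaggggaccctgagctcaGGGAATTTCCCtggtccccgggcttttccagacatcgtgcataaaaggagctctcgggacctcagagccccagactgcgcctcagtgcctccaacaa
Cxcl10, chr5:92348890-92349139, minus strand: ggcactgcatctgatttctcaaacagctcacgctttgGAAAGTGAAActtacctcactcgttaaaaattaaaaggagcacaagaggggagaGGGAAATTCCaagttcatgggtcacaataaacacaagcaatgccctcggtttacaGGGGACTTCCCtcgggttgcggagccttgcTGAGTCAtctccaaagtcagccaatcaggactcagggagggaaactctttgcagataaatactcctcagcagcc
Cxcl14, chr13:56296552-56296801, minus strand: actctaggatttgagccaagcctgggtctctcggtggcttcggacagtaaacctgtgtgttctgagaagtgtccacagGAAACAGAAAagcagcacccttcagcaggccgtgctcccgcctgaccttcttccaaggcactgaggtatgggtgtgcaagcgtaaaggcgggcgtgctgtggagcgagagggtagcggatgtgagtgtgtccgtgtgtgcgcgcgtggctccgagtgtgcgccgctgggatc
Ccr4, chr9:114496545-114496794, minus strand: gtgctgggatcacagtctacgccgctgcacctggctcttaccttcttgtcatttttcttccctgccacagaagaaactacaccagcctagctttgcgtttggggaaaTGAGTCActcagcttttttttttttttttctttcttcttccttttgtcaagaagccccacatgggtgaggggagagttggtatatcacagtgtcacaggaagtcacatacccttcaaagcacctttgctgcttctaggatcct
Xcr1, chr9:123862030-123862279, minus strand: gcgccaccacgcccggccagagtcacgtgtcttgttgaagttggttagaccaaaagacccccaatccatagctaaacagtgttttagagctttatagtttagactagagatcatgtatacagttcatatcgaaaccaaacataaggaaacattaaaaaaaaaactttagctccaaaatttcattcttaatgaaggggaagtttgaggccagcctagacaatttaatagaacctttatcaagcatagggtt
The kappaB match begins 71 bases before the start in Cxcl1 and 97 bases before it in Cxcl2. Cxcl10 holds kappaB matches at 159 and 104 bases before the start, an interferon-stimulated response element at 213 and an AP-1 element at 74. Cxcl14 has its response element at 172 bases, Ccr4 an AP-1 element at 143 bases, and the Xcr1 window holds none of the 3 motifs. Matches were searched on both strands, and overlapping matches to 1 motif were merged. The table holds 47 such windows for 40 of the members, because some have several starts. A kappaB match lay in 10 of the 47 windows (21.3%), against 7.25% of 32817 promoters of the same length. The response element was found in 3 windows (6.38%), against 2.97% of all promoters, and the AP-1 element in 6 (12.8%), against 6.75%. The sequence TATAAA was found in 12 windows (25.5%), against 12.4%. These are descriptions of letters in a window and do not show that a factor binds there.

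Per kilobase of exon, the highest member means were those of Ccl9 and Cxcl12 in all 3 groups. Ccl9, a CC ligand made by macrophages and other myeloid cells, averaged 570 normalised read counts per kilobase in PR-SET7_LOBE and 665 in DEN_WT, against 338 in WT. Cxcl12, which retains cells that carry Cxcr4 and is made by stromal and endothelial cells, averaged 266 in PR-SET7_LOBE and 325 in DEN_WT, against 503 in WT. Ccl9 thus stood above Cxcl12 in PR-SET7_LOBE and DEN_WT and below it in WT, but neither gene passed the test of its own change. Next came Ccr4 in PR-SET7_LOBE with 193, Cxcl1 in DEN_WT with 173 and Ccr4 in WT with 189 normalised read counts per kilobase. Ccr4 was the only receptor among the 6 highest members per kilobase in PR-SET7_LOBE, no receptor was among them in DEN_WT, and Ccr4, Cxcr2 and Xcr1 were among them in WT, the last 2 with 54.1 and 44.2. Exon lengths were available for 53 of the 58 rows.

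In PR-SET7_LOBE livers against WT, 1 of the 39 tested members rose and 0 fell, where 0.593% of all tested genes rose and 0.179% fell, 0.772% in all. The member was Cxcr4. With DESeq2 on recovered reads 8 members were called, where 4.52% of all genes were, and with edgeR on recovered reads 0, where 0.256% were. The log2 fold change was above 0 in 33 of the 39 and below 0 in 6, with a median of 1.56, while 52.8% of all tested genes lay above 0 and their median was 0.06. In 19 members all 4 PR-SET7_LOBE libraries were above both WT libraries, and in 2 all were below them; over all tested genes these shares were 11.2% and 10.1%. Without the first PR-SET7_LOBE library the test called 13 members of 38, and over all genes the shares were 9.31% higher and 7.2% lower. Those that rose included Ccl2, Ccl3, Cxcl5, Cxcl10, Cx3cl1, Ccr1, Ccr2, Ccr9, Cxcr4, Cxcr6 and Cx3cr1, and Cxcl12 fell. Leaving out the second library instead gave 0 called members of 37, where 27 of 17234 genes rose and 10 fell. The count of called members therefore rests on which library is left out, and the first was picked by the members' own values.

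In DEN_WT livers against WT, 4 members rose and 3 fell, where 8.17% of all tested genes rose and 4.71% fell, 12.9% in all. The 4 that rose were Cxcl14, Cxcl17, Cxcr4 and Cxcr7, and the 3 that fell were the receptors Ccr4, Cxcr2 and Xcr1. The log2 fold change was above 0 in 32 members and below 0 in 7, with a median of 1.27 against 0.17 over all genes, of which 55.4% lay above 0. Without the first PR-SET7_LOBE library, which enters this comparison only through the shared estimate of the spread, 11 members of 38 rose and 3 fell, where 17.9% of all genes rose and 11% fell. The added members were Ccl2, Ccr2, Ccr3, Cxcl1, Cxcl5, Cxcl9 and Cxcl13. Both DEN_WT libraries were above both WT libraries in 23 members and below both in 5, and over all genes the shares were 39.6% and 30.6%. Among ligands 2 of 23 rose and 0 fell, whereas among receptors 2 of 16 rose and 3 fell. Both comparisons share the same 2 WT libraries, so their values are given side by side and a likeness between them is not read as a result.

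**Figure D2:**
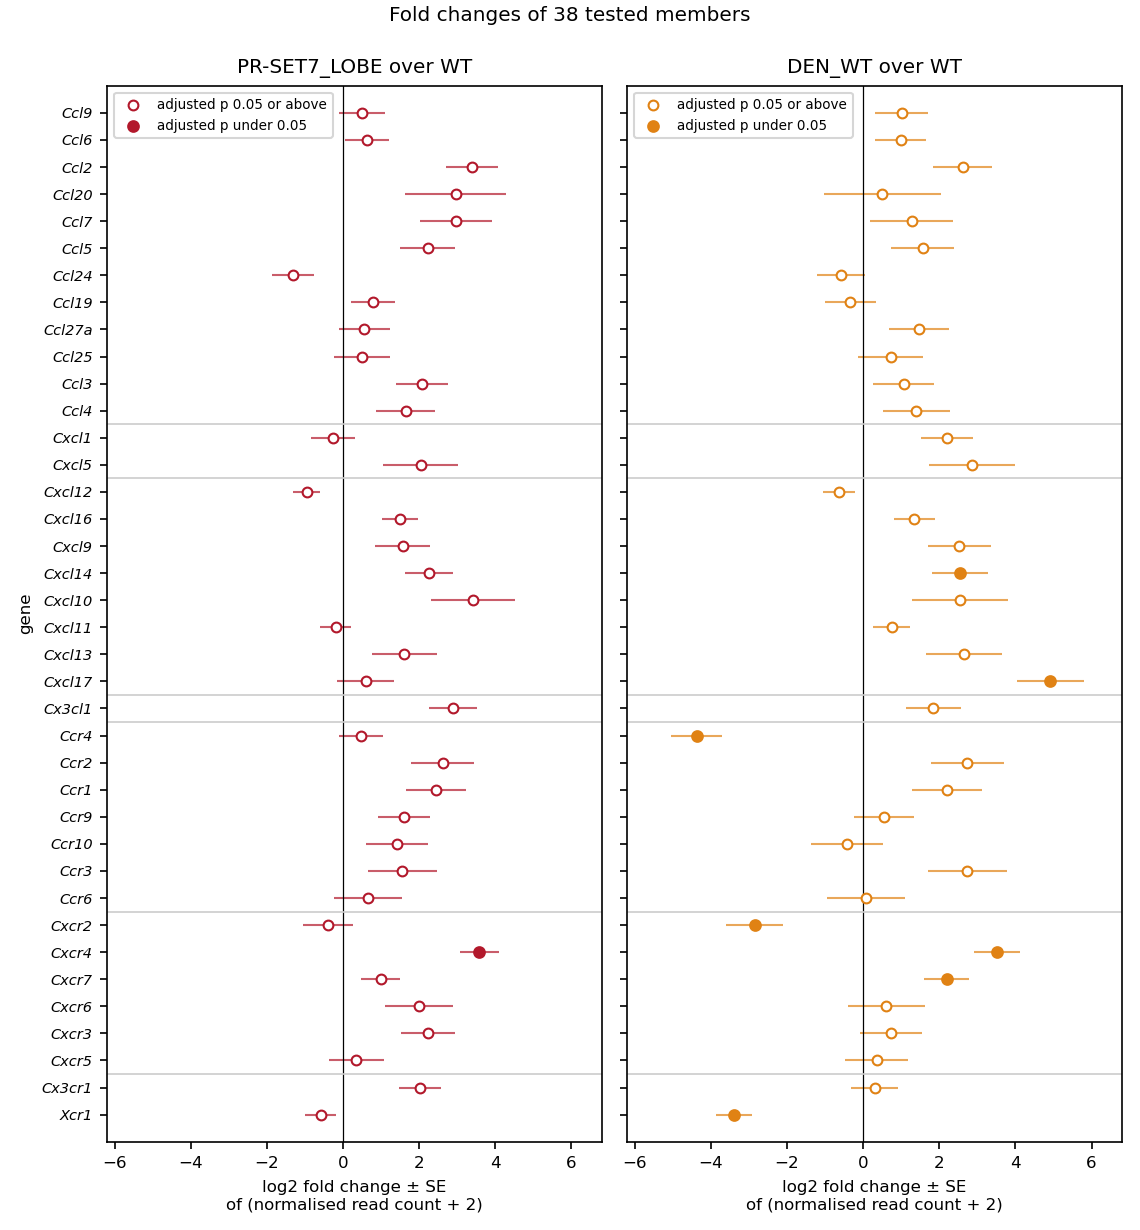
Log2 fold change with its standard error for 38 tested members, PR-SET7_LOBE over WT on the left and DEN_WT over WT on the right, in the same order of genes. Filled points have an adjusted p under 0.05: Cxcr4 on the left, and Cxcl14, Cxcl17, Cxcr4, Cxcr7, Ccr4, Cxcr2 and Xcr1 on the right.

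Set directly against DEN_WT, 3 members were higher in PR-SET7_LOBE and 2 were lower, where 5.09% of all tested genes were higher and 7.53% lower, 12.6% in all. The higher members were the receptors Ccr4, Xcr1 and Cxcr2, and the lower ones were the ligands Cxcl1 and Cxcl17. The median log2 fold change of the members was 0.15, against -0.01 over all genes, and 22 lay above 0 and 16 below. All 4 PR-SET7_LOBE libraries were above both DEN_WT libraries in 7 members and below both in 5, against shares of 16.5% and 23% over all genes. Without the first PR-SET7_LOBE library 4 members were higher, with Cx3cr1 added, and 2 were lower, where 7.3% of all genes were higher and 10.7% lower.

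The receptor Ccr4, found on regulatory and type 2 helper T cells, showed the largest fall among the members in DEN_WT. It lies on mm9 chromosome 9, 114399434 to 114405662 (ENSMUSG00000047898). It had 786, 452, 458 and 686 normalised read counts in PR-SET7_LOBE, 20 and 17 in DEN_WT and 994 and 177 in WT. The 2 DEN_WT libraries lay far below the other 6, and the 2 WT libraries differed from each other by more than the whole range of PR-SET7_LOBE. The log2 fold change was -4.37 in DEN_WT against WT (SE 0.67, limma adjusted p = 0.00278) and 4.83 in PR-SET7_LOBE against DEN_WT (SE 0.58, adjusted p = 0.000713). It was 0.46 in PR-SET7_LOBE against WT (SE 0.58, adjusted p = 0.701). The known ligands of Ccr4, Ccl17 and Ccl22, did not pass the filter: Ccl17 had 0, 3, 4 and 5 in PR-SET7_LOBE, 1 and 0 in DEN_WT and 0 in both WT libraries, and Ccl22 had 2, 6, 6 and 8 in PR-SET7_LOBE, 7 in both DEN_WT libraries and 0 and 1 in WT.

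Xcr1, the receptor for Xcl1 that marks cross-presenting dendritic cells, also fell in DEN_WT. It lies on mm9 chromosome 9, 123761436 to 123771246 (ENSMUSG00000060509). It had 106, 216, 121 and 103 normalised read counts in PR-SET7_LOBE, 19 and 15 in DEN_WT and 204 and 190 in WT. The DEN_WT libraries were again the lowest of the 8, and the PR-SET7_LOBE range reached past both WT values. The log2 fold change was -3.40 in DEN_WT against WT (SE 0.48, limma adjusted p = 0.00168), 2.81 in PR-SET7_LOBE against DEN_WT (SE 0.41, adjusted p = 0.00158) and -0.59 in PR-SET7_LOBE against WT (SE 0.41, adjusted p = 0.472). Its ligand Xcl1 had 0, 3, 2 and 0 in PR-SET7_LOBE and 0 in every DEN_WT and WT library. The calls of Ccr4 and Xcr1 in both comparisons with DEN_WT were the 4 of 13 member calls that stood under all 20 alternatives.

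Cxcr2, the neutrophil receptor for CXC ligands with an ELR motif, lies on mm9 chromosome 1, 74200563 to 74207812 (ENSMUSG00000026180). It had 66, 114, 75 and 378 normalised read counts in PR-SET7_LOBE, 26 and 16 in DEN_WT and 125 and 205 in WT. The 2 DEN_WT libraries were below all others, and the fourth PR-SET7_LOBE library was above both WT libraries while the other 3 were below them. Its log2 fold change was -2.85 in DEN_WT against WT (SE 0.75, limma adjusted p = 0.0321) and 2.46 in PR-SET7_LOBE against DEN_WT (SE 0.65, adjusted p = 0.0317). Leaving out either DEN_WT library, either WT library or the second PR-SET7_LOBE library took the call against WT away, with an adjusted p of up to 0.204. The call against DEN_WT was lost under 4 alternatives, with an adjusted p of up to 0.279: with only the 2 groups in the fit, without either DEN_WT library and without the second PR-SET7_LOBE library. The related receptor Cxcr1 did not pass the filter.

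Of the 5 ELR ligands among the members, Cxcl1 and Cxcl5 passed the filter. Cxcl1, an ELR chemokine made by hepatocytes and macrophages in injury (mm9 chromosome 5, 91320267 to 91322141, ENSMUSG00000029380), had 71, 54, 107 and 24 normalised read counts in PR-SET7_LOBE, 293 and 354 in DEN_WT and 111 and 42 in WT. Both DEN_WT libraries were above the other 6, and PR-SET7_LOBE overlapped WT. Cxcl1 was lower in PR-SET7_LOBE than in DEN_WT by a log2 fold change of -2.47 (SE 0.58, limma adjusted p = 0.0186). This call was lost without either DEN_WT library, with an adjusted p of up to 0.195. In DEN_WT against WT the log2 fold change was 2.20 (SE 0.68, adjusted p = 0.0572), just outside the threshold, and it passed under 6 of 20 alternatives. Cxcl5 and Cxcl2, chosen after their values were seen, had no read in WT: in PR-SET7_LOBE Cxcl5 had 0, 5, 25 and 10, with 6 and 24 in DEN_WT, and Cxcl2 had 7, 3, 4 and 7, with 16 and 6 in DEN_WT. Set against the value of 3 reads per WT library, averaged to 5.2, the mean of Cxcl5 in DEN_WT was at least 2.89-fold higher and that of Cxcl2 at least 2.12-fold higher, bounds that cover counting error only. Each bound rests on 1 library: without the highest DEN_WT library it was 1.15-fold for either gene. Cxcl15, a member with the ELR motif that stayed below the filter, had 5, 9, 5 and 18 in PR-SET7_LOBE, 0 and 1 in DEN_WT and 10 and 14 in WT, so its DEN_WT libraries were the lowest, as those of Cxcr2 were.

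Cxcl17, a mucosal chemokine, was at or near 0 outside DEN_WT. It lies on mm9 chromosome 7, 26185072 to 26197905 (ENSMUSG00000060188). It had 0, 0, 1 and 5 normalised read counts in PR-SET7_LOBE, 35 and 97 in DEN_WT and 0 in both WT libraries. Both DEN_WT libraries lay above all others. Against the value of 3 reads, the DEN_WT mean was at least 12.7-fold higher than WT, or 6.74-fold without the second DEN_WT library, and limma gave an adjusted p of 0.00546. PR-SET7_LOBE was lower than DEN_WT (log2 fold change -4.32, SE 0.75, adjusted p = 0.00394). Both calls were lost without the second DEN_WT library, at adjusted p = 0.105 against WT and 0.129 for PR-SET7_LOBE against DEN_WT.

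Cxcr4, the receptor for Cxcl12 on most leukocytes and on endothelium, rose in both comparisons with WT, which share the WT libraries. It lies on mm9 chromosome 1, 130484776 to 130488870 (ENSMUSG00000045382). It had 40, 55, 44 and 104 normalised read counts in PR-SET7_LOBE, 55 and 53 in DEN_WT and 2 and 4 in WT. All 6 libraries of the first 2 groups were above both WT libraries, and the WT values rest on 4 reads in all. Its log2 fold change was 3.58 in PR-SET7_LOBE against WT (SE 0.52, limma adjusted p = 0.0163), 3.51 in DEN_WT against WT (SE 0.60, adjusted p = 0.00448) and 0.06 in PR-SET7_LOBE against DEN_WT (SE 0.52, adjusted p = 0.955). The call in PR-SET7_LOBE was lost without either WT library, without the second PR-SET7_LOBE library and with edgeR on recovered reads, with an adjusted p of up to 0.124. The call in DEN_WT was lost without its second library, at adjusted p = 0.0564.

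Cxcr7, a scavenging receptor that removes Cxcl12 (mm9 chromosome 1, 92100555 to 92113326, ENSMUSG00000044337), had 13, 14, 12 and 17 normalised read counts in PR-SET7_LOBE, 49 and 24 in DEN_WT and 6 in both WT libraries. The groups did not overlap, with DEN_WT highest, PR-SET7_LOBE in the middle and WT lowest, on 7 reads in WT. It rose in DEN_WT against WT by a log2 fold change of 2.19 (SE 0.59, limma adjusted p = 0.0365), a call lost under 7 of 20 alternatives. In PR-SET7_LOBE against WT the log2 fold change was 0.99 (SE 0.51, adjusted p = 0.358). Their common ligand Cxcl12 had 2804, 1631, 1731 and 2518 in PR-SET7_LOBE, 2792 and 2523 in DEN_WT and 4206 and 4023 in WT. Every PR-SET7_LOBE and DEN_WT library was below both WT libraries, at log2 fold changes of -0.96 (SE 0.36, adjusted p = 0.240) and -0.63 (SE 0.42, adjusted p = 0.340). Without the first PR-SET7_LOBE library Cxcl12 passed the threshold in PR-SET7_LOBE, at log2 fold change -1.10 (SE 0.30, adjusted p = 0.038). That library was picked by the members' own values, so this call supports nothing.

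Cxcl14, a chemokine of epithelia and stroma whose signalling receptor is not settled, lies on mm9 chromosome 13, 56390008 to 56397912 (ENSMUSG00000021508). It had 290, 148, 310 and 69 normalised read counts in PR-SET7_LOBE, 314 and 148 in DEN_WT and 53 and 23 in WT. All PR-SET7_LOBE and DEN_WT libraries were above both WT libraries. It rose in DEN_WT, at log2 fold change 2.55 (SE 0.73, limma adjusted p = 0.0437), and this call was lost under 8 of 20 alternatives, with an adjusted p of up to 0.271. In PR-SET7_LOBE against WT the log2 fold change was 2.25 (SE 0.63, adjusted p = 0.141).

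**Figure D3:**
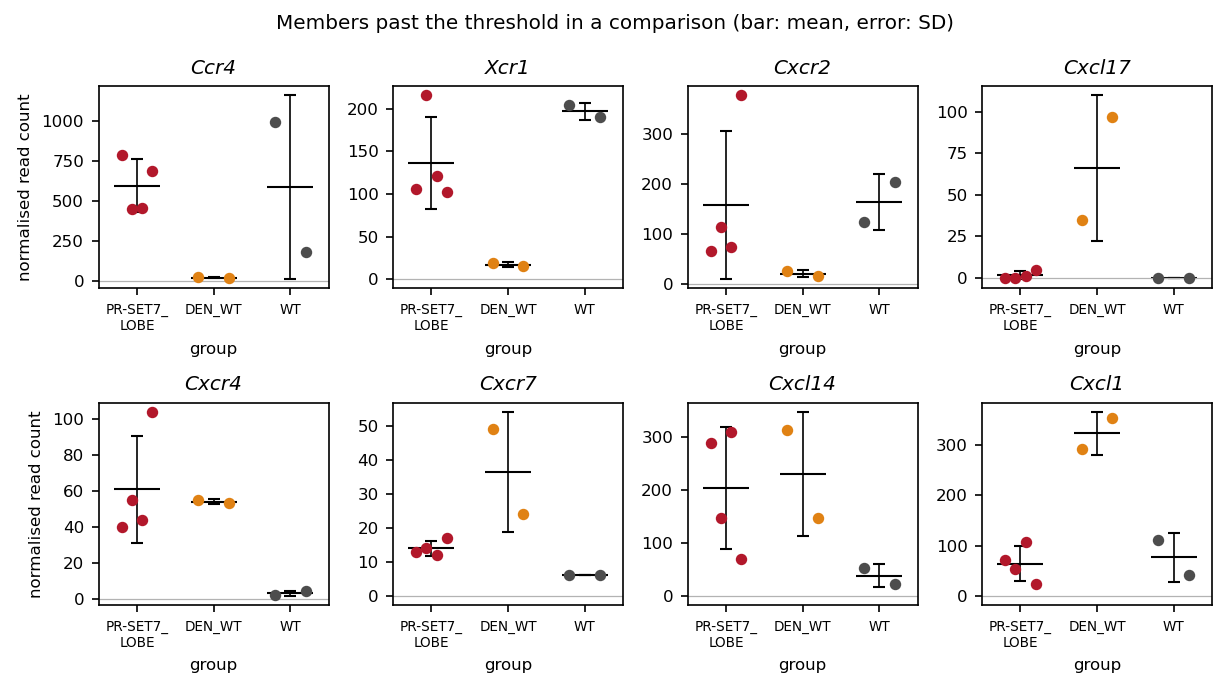
Normalised read counts of the 8 members past the threshold in at least 1 comparison, by group (PR-SET7_LOBE, DEN_WT, WT), with 1 point per library, the mean as a bar and the SD as the error. Ccr4, Xcr1 and Cxcr2 are lowest in DEN_WT, Cxcl17 and Cxcl1 are highest there, and Cxcr4 and Cxcl14 are higher in both PR-SET7_LOBE and DEN_WT than in WT.

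Of the monocyte axis of Ccl2, Ccl7 and their receptor Ccr2, Ccl2 came nearest to the threshold. Ccl2, the main monocyte attractant, had 84, 141, 136 and 32 normalised read counts in PR-SET7_LOBE, 36 and 67 in DEN_WT and 12 and 3 in WT. All 6 libraries of the first 2 groups were above both WT libraries, which held 8 reads in all. Its log2 fold change was 3.38 in PR-SET7_LOBE (SE 0.68, limma adjusted p = 0.053) and 2.61 in DEN_WT (SE 0.78, adjusted p = 0.0526), and each passed under 7 of 20 alternatives. Ccl7 had 26, 7, 141 and 13 in PR-SET7_LOBE, 8 and 5 in DEN_WT and 2 and 1 in WT, with the third PR-SET7_LOBE library far above the rest. The log2 fold change of Ccl7 was 2.97 in PR-SET7_LOBE (SE 0.95, adjusted p = 0.183) and 1.27 in DEN_WT (SE 1.10, adjusted p = 0.47). Ccr2 had 16, 90, 192 and 39 in PR-SET7_LOBE, 99 and 40 in DEN_WT and 6 and 10 in WT, again with no overlap with WT. Its log2 fold change was 2.62 in PR-SET7_LOBE (SE 0.83, adjusted p = 0.182) and 2.73 in DEN_WT (SE 0.96, adjusted p = 0.0895). Without the first PR-SET7_LOBE library both Ccl2 (adjusted p = 0.0213) and Ccr2 (adjusted p = 0.02) passed the threshold in PR-SET7_LOBE. That library was picked by the members' own values, so these calls support nothing.

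Cx3cl1, a membrane-bound chemokine of endothelium and epithelium, and its only receptor Cx3cr1, carried by monocytes and macrophages, differed in their pattern. Cx3cl1 had 154, 186, 206 and 39 normalised read counts in PR-SET7_LOBE, 62 and 56 in DEN_WT and 14 and 16 in WT. Every PR-SET7_LOBE and DEN_WT library was above both WT libraries. Its log2 fold change was 2.89 in PR-SET7_LOBE (SE 0.62, limma adjusted p = 0.0714) and 1.84 in DEN_WT (SE 0.72, adjusted p = 0.119). Cx3cr1 had 218, 442, 368 and 222 in PR-SET7_LOBE, 92 and 86 in DEN_WT and 146 and 35 in WT. Its PR-SET7_LOBE libraries were above all others, while DEN_WT lay between the WT values. The log2 fold change of Cx3cr1 was 2.02 in PR-SET7_LOBE against WT (SE 0.54, adjusted p = 0.124) and 1.72 in PR-SET7_LOBE against DEN_WT (SE 0.54, adjusted p = 0.0625). Without the first PR-SET7_LOBE library both genes passed the threshold in PR-SET7_LOBE against WT, at adjusted p = 0.0262 for Cx3cl1 and 0.0314 for Cx3cr1. These calls support nothing, since that library was picked by the members' own values.

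The interferon-inducible ligands of Cxcr3, a receptor of activated T and NK cells, did not pass the test in any of the 3 comparisons with all libraries. Cxcl9 had 70, 489, 83 and 108 normalised read counts in PR-SET7_LOBE, 169 and 397 in DEN_WT and 57 and 33 in WT, and all PR-SET7_LOBE and DEN_WT libraries were above WT. Its log2 fold change was 1.57 in PR-SET7_LOBE (SE 0.72, limma adjusted p = 0.312) and 2.52 in DEN_WT (SE 0.83, adjusted p = 0.0715), and in DEN_WT it passed under 5 of 20 alternatives. Cxcl10, chosen after its values were seen, had 24, 495, 318 and 49 in PR-SET7_LOBE, 30 and 133 in DEN_WT and 14 and 6 in WT, with 2 of the PR-SET7_LOBE libraries far above the rest. Cxcl10 had a log2 fold change of 3.41 in PR-SET7_LOBE (SE 1.10, adjusted p = 0.186). Without the first PR-SET7_LOBE library it passed the threshold, at 4.15 (SE 0.95, adjusted p = 0.0252). This call supports nothing, since that library was picked by the members' own values. Cxcl10 and Cxcl11 overlap Art3 on the other strand, and the strand setting of the counting is not given, so their values are uncertain. Cxcl11 had 37, 50, 73 and 44 in PR-SET7_LOBE, 97 in both DEN_WT libraries and 51 and 63 in WT. Cxcl11 was highest in DEN_WT and overlapped between PR-SET7_LOBE and WT, and it passed the test in no comparison. Cxcr3 itself had 15, 19, 23 and 20 in PR-SET7_LOBE, 3 and 9 in DEN_WT and 8 and 0 in WT, and its 4 PR-SET7_LOBE values were above all others (log2 fold change 2.23 against WT, SE 0.71, adjusted p = 0.183).

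In the same libraries the 11 genes of a list of interferon-stimulated genes summed to 2807 to 6741 in PR-SET7_LOBE, 2883 to 3822 in DEN_WT and 1696 to 3215 in WT. None of the 11 rose in PR-SET7_LOBE, where 0.593% of all tested genes rose, and 1, Ifit1, rose in DEN_WT, where 8.17% did. The log2 fold change of Ifit1 was 3.20 in PR-SET7_LOBE (limma adjusted p = 0.0825) and 3.10 in DEN_WT (adjusted p = 0.035). The median of the list was 1.41 in PR-SET7_LOBE and 1.27 in DEN_WT. The part of these genes in the Cxcl9 and Cxcl10 values was not tested.

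**Figure D4:**
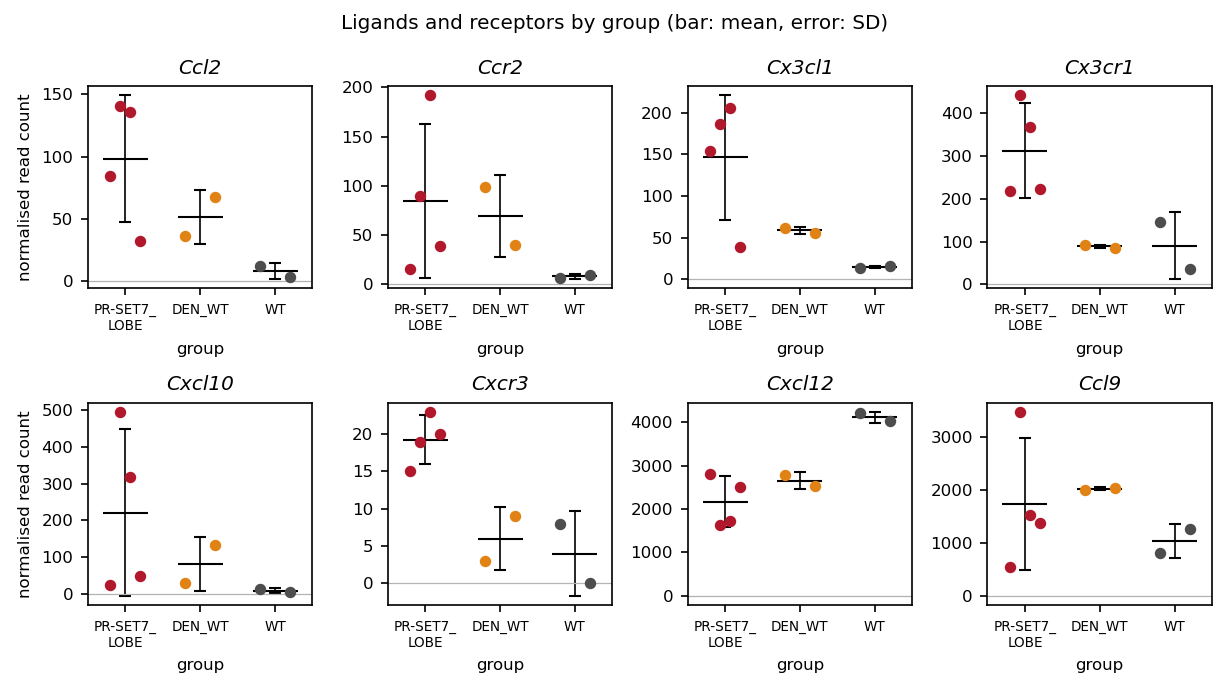
Normalised read counts of 8 ligands and receptors by group (PR-SET7_LOBE, DEN_WT, WT), with 1 point per library, the mean as a bar and the SD as the error. Ccl2, Ccr2 and Cx3cl1 are above both WT libraries in every PR-SET7_LOBE and DEN_WT library, and Cxcl10 is spread from 24 to 495 within PR-SET7_LOBE.

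Cxcl16, a transmembrane chemokine that also acts as a scavenger receptor, had 502, 338, 384 and 163 normalised read counts in PR-SET7_LOBE, 251 and 335 in DEN_WT and 158 and 81 in WT. Both groups were above WT throughout, at log2 fold changes of 1.49 (SE 0.47, limma adjusted p = 0.181) and 1.34 (SE 0.54, adjusted p = 0.132), but the gene overlaps Zmynd15 on the other strand. Its receptor Cxcr6, which overlaps Fyco1 and is found on liver T and NKT cells, had 4, 22, 33 and 27 in PR-SET7_LOBE, 6 and 5 in DEN_WT and 10 and 0 in WT. The first PR-SET7_LOBE library was below 1 of the WT libraries and the other 3 were above both.

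Ccl9 had 548, 3482, 1536 and 1381 normalised read counts in PR-SET7_LOBE, 2002 and 2046 in DEN_WT and 802 and 1255 in WT. DEN_WT was above WT and inside the PR-SET7_LOBE range, and the log2 fold changes of 0.50 in PR-SET7_LOBE (SE 0.60, limma adjusted p = 0.683) and 1.01 in DEN_WT (SE 0.69, adjusted p = 0.354) did not pass the threshold. With only the 2 groups in the fit the change in DEN_WT passed, at adjusted p = 0.0402. Ccr1, a receptor that mouse Ccl9 engages, had 5, 14, 40 and 25 in PR-SET7_LOBE, 19 and 10 in DEN_WT and 4 and 0 in WT. Every PR-SET7_LOBE and DEN_WT library was above WT, which held 2 reads (adjusted p = 0.186 and 0.141). Ccl5, a ligand that attracts T cells and monocytes, had 48, 41, 27 and 20 in PR-SET7_LOBE, 16 and 24 in DEN_WT and 16 and 1 in WT, where the PR-SET7_LOBE values were above WT. Ccr10, a receptor of skin-homing cells that overlaps Cntnap1, had 44, 6, 10 and 13 in PR-SET7_LOBE, 2 and 3 in DEN_WT and 10 and 1 in WT, and its groups overlapped apart from DEN_WT and PR-SET7_LOBE.

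The other 15 tested members are those the rule for named genes leaves out, and so by construction none is past the threshold. Among them, and chosen after its values were seen, Ccl24, an eosinophil attractant, had 5, 10, 16 and 15 normalised read counts in PR-SET7_LOBE, 21 and 17 in DEN_WT and 30 and 29 in WT. The 3 groups did not overlap, with WT highest. Its receptor Ccr3 had 0, 2, 7 and 15 in PR-SET7_LOBE, 20 and 6 in DEN_WT and 0 in both WT libraries. Cxcl13, a B cell attractant, had 73, 16, 5 and 10 in PR-SET7_LOBE, 22 and 57 in DEN_WT and 4 in both WT libraries, and both groups lay above WT.

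A cluster of receptors sits on mm9 chromosome 9. The table lists Ccr9, Cxcr6, Xcr1, Ccr1, Ccr3 and Ccr2 there from 123587557 to 124028296, and Xcr1 was the only one of these that fell in DEN_WT. The nearest members on either side, Ccr1 with 19 and 10 in DEN_WT against 4 and 0 in WT, and Cxcr6 with 6 and 5 in DEN_WT against 10 and 0 in WT, did not pass the threshold. Ccl21b and Ccl21c hold the same values in all PR-SET7_LOBE and WT libraries, and as near-identical copies their counts are uncertain.

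Other genes of the pathway were counted by list, to be read beside the shares of all tested genes called. These shares were 0.772% in PR-SET7_LOBE against WT, 12.9% in DEN_WT against WT and 12.6% in PR-SET7_LOBE against DEN_WT. At 0.772%, the lack of a call in a list this short is no result about the list. Of 8 tested atypical receptors, binders and platelet chemokines, none rose or fell in any of the 3 comparisons. Of 19 tested genes for signal transduction downstream of chemokine receptors, none changed in PR-SET7_LOBE against WT, and 1, the actin regulator Was, fell in DEN_WT. Was had 139, 129, 83 and 101 normalised read counts in PR-SET7_LOBE, 31 and 24 in DEN_WT and 135 and 91 in WT, and the DEN_WT libraries were the lowest (log2 fold change -1.95 against WT, limma adjusted p = 0.0208). Was and Pik3r5, a regulatory subunit of the G protein-coupled phosphoinositide 3-kinase, were higher in PR-SET7_LOBE than in DEN_WT. Of 18 tested inducers of chemokine genes, such as Tnf, Il1b and Nfkb1, none rose or fell in any of the 3 comparisons.

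Markers of the leukocytes that carry these receptors were summed in the same libraries, since liver RNA includes that of such cells. Calls in these lists are to be read beside the shares of all tested genes. In DEN_WT against WT 8.17% rose and 4.71% fell. For 6 lists the sum is also given without 1 gene, chosen after its values were seen. The T cell list summed to 202 to 278 in PR-SET7_LOBE, 73 to 81 in DEN_WT and 214 to 220 in WT. In it 1 of 8 tested genes fell in DEN_WT, Cd3d, with 147, 65, 44 and 71 in PR-SET7_LOBE, 4 and 3 in DEN_WT and 146 and 147 in WT. Without Cd3d the T cell list summed to 131 to 175 in PR-SET7_LOBE, 70 to 77 in DEN_WT and 68 to 73 in WT. Cd3e had 5, 8, 17 and 24 in PR-SET7_LOBE, 4 and 8 in DEN_WT and 10 and 7 in WT, and Cd3g was at 0 in WT. The neutrophil list summed to 218 to 416 in PR-SET7_LOBE, 39 to 87 in DEN_WT and 202 to 282 in WT. In it 1 of 5 tested genes, Csf3r, fell in DEN_WT. Csf3r had 213, 289, 171 and 168 in PR-SET7_LOBE, 40 and 23 in DEN_WT and 236 and 200 in WT. Of the rest of the list, Ly6g, Ngp and Camp were at 0 in WT. S100a8 and S100a9 each had 14 and 1 there, Elane 8 and 0, Mpo 6 and 0 and Retnlg 4 and 0. Without Csf3r the neutrophil list summed to 50 to 245 in PR-SET7_LOBE, 16 to 47 in DEN_WT and 2 to 46 in WT, so the lower sum in DEN_WT was that of Csf3r, as the one of the T cell list was that of Cd3d.

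The dendritic cell list summed to 133 to 252 in PR-SET7_LOBE, 135 to 173 in DEN_WT and 99 to 150 in WT. In it 1 of 6 tested genes rose in DEN_WT, Clec9a, which marks the same cross-presenting cells as Xcr1, with 9, 14, 27 and 22 in PR-SET7_LOBE, 26 and 33 in DEN_WT and 2 and 7 in WT. Clec9a therefore rose in DEN_WT (log2 fold change 2.38, limma adjusted p = 0.0471) where Xcr1 fell, but Clec9a had only 6 reads in WT. The median of the list in DEN_WT was 0.50. Batf3 of the same list lay below 0, with 13 and 12 in DEN_WT and 73 and 12 in WT (log2 fold change -1.16, adjusted p = 0.385). The NK cell list summed to 84 to 163 in PR-SET7_LOBE, 35 to 38 in DEN_WT and 57 to 93 in WT, and Eomes was its 1 gene that fell in DEN_WT. Without Eomes its sums were 41 to 67 in PR-SET7_LOBE, 30 to 36 in DEN_WT and 20 to 24 in WT. The B and plasma cell list summed to 335 to 551 in PR-SET7_LOBE, 137 to 157 in DEN_WT and 299 to 394 in WT, and Cd22 was its 1 gene that fell there. Without Cd22 its sums were 121 to 422 in PR-SET7_LOBE, 126 to 131 in DEN_WT and 24 to 58 in WT. Both lists without that gene were thus higher in DEN_WT than in WT, against the direction of the whole list. In each of the T cell, neutrophil, NK cell and B and plasma cell lists a single gene fell, and the other tested genes did not pass the threshold in DEN_WT against WT. Over all tested genes 8.17% rose and 4.71% fell there, so a single call in so short a list is not read as a result about the list. The part of these cells in the falls of Ccr4, Cxcr2 and Xcr1 was not tested.

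Markers of monocytes and recruited macrophages summed to 2827 to 7861 in PR-SET7_LOBE, 6631 to 9164 in DEN_WT and 1803 to 3255 in WT. Spp1 is also expressed by cholangiocytes. Without Spp1 they summed to 2072 to 5990 in PR-SET7_LOBE, 1477 to 2310 in DEN_WT and 1705 to 3093 in WT. The sum in DEN_WT then no longer stood above WT, but it rests mostly on Csf1r and Lyz2, which went opposite ways. Csf1r had 506 and 405 in DEN_WT and 1964 and 788 in WT, and Lyz2 had 979 and 580 against 530 and 384. Of 11 tested, Itgax, Gpnmb and Spp1 rose in PR-SET7_LOBE, where 0.593% of all tested genes rose. In DEN_WT Itgax, Gpnmb and Spp1 rose and Itgam fell, where 8.17% of all tested genes rose and 4.71% fell. Kupffer cell markers summed to 3770 to 6271 in PR-SET7_LOBE, 2330 to 3505 in DEN_WT and 2854 to 9561 in WT, and 0 of 6 tested passed the threshold. Cholangiocyte markers summed to 1109 to 2853 in PR-SET7_LOBE and 4572 to 7943 in DEN_WT, against 217 to 315 in WT. Spp1 is in this list too, and without it the sums were 250 to 697 in PR-SET7_LOBE and 251 to 256 in DEN_WT, against 119 to 153 in WT. Hepatocyte markers summed to 478207 to 1663066 in PR-SET7_LOBE, 1465257 to 1706119 in DEN_WT and 1058769 to 1370088 in WT, so the labelled tissue is present in every library. The part of the macrophage and cholangiocyte markers in the Ccl2, Ccr2, Cx3cl1 and Cxcr4 values was not tested.

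**Figure D5:**
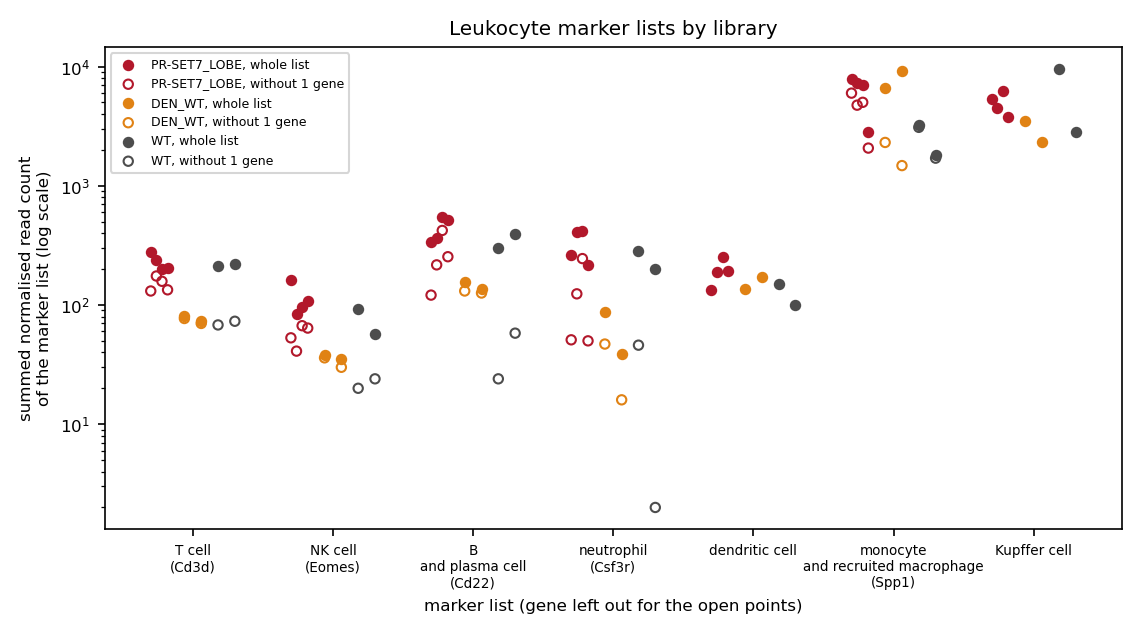
Summed normalised read counts of 7 leukocyte marker lists on a log axis, with 1 point per library and the groups in the order PR-SET7_LOBE, DEN_WT, WT within each list. Filled points are whole lists and open points leave out the gene named under the list. The whole T cell, NK cell, B and plasma cell and neutrophil sums are lowest in the 2 DEN_WT libraries, but without Cd3d, Eomes, Cd22 or Csf3r they are not.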

How the data were processed

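The members and all gene lists were chosen with earlier results of these data known. Messenger RNA was isolated with oligo(dT) beads and read on an Ion Proton, per the labels' protocols. The submitters' processing notes name TopHat2 2.0.9, Cufflinks, DESeq and the build mm9. How reads were counted, on which annotation and strand, is not given in the sources used. The deposited values are a signal, read counts divided by a size factor and rounded: low values lie on fixed steps, checked below 60, and median-of-ratios size factors over 15256 genes are close to 1 in all 8 columns. Because the values are not raw counts, the count test planned for them was replaced by limma 3.58.1 in R 4.3.3 (trend, robust) on log2(value + 2), with filterByExpr of edgeR 4.0.16 by group (minimum count 10) and Benjamini-Hochberg adjustment over 17362 genes at 0.05. The test as planned, edgeR on the deposited values, is an alternative, as are edgeR and DESeq2 1.42.0 on recovered reads. The pseudocount of 2 was set after the unit of the values was seen.

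Named members are those past the threshold, the 10 with the smallest p in each comparison, the 6 with the highest mean and up to 10 receptors by mean, which gave 24; 1 of them is not reported here. Others are said to be chosen after their values were seen. The step of each library gives its depth, and a floor is the value of 3 reads; floors cover counting error only, since amplified reads are not independent molecules. Exon lengths are from GENCODE M21, matched by Ensembl ID, and promoters from RefSeq; no coordinate of theirs is mixed with mm9. A limma fit with an added scaling step was also run on simulated data, and its outcome is not used here.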

Additional observations from a re-analysis of the deposited data

Results flagged for a closer look

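Ccl20, a ligand of Ccr6, had 4, 218, 7 and 3 normalised read counts in PR-SET7_LOBE, 0 and 2 in DEN_WT and 0 in both WT libraries. The value of 218 in the second PR-SET7_LOBE library lay far from the other 3: its gap to the nearest of them was 0.845 of the range of the group on the log2 scale, above Dixon's critical value for 4 samples. A search over the 24 members named by rule found no such library, and it was then widened to all 39 tested members after the value of Ccl20 had been seen. Chance alone places about 1 in 20 groups of 4 past this value, so 1 of 39 is not more than chance gives. The same library also had the highest Cxcl9, Cxcl10 and Ccl9 values of its group, at 489, 495 and 3482. Without a read of Ccl20 in WT, its mean in PR-SET7_LOBE was at least 11.2-fold higher than the value of 3 reads, a bound that rests on that 1 library, and limma gave an adjusted p of 0.303.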

How the results depend on the processing

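Of the 13 member calls, 4 held under all 20 alternatives and none of the 13 changed sign. DEN_WT and WT hold 2 libraries each, and most members have few reads in WT. In PR-SET7_LOBE against WT the count of 1 called member became 2 with upper-quartile scaling, 8 with DESeq2 on recovered reads, 3 with no filter, 2 with a pseudocount of 0.5 and 0 with edgeR on recovered reads, and leaving out 1 library gave 0 to 13. In DEN_WT against WT the count of 7 became 12 with DESeq2 and 15 with only the 2 groups in the fit, and leaving out 1 library gave 2 to 14. In PR-SET7_LOBE against DEN_WT the count of 5 became 8 with DESeq2, and leaving out 1 library gave 2 to 6. The calls over all genes moved as well. In DEN_WT against WT 1418 of 17362 genes rose and 817 fell. With DESeq2 1861 of 17216 rose and 1454 fell. With only the 2 groups in the fit 3547 of 14924 rose and 2340 fell, and 25 members were tested. In PR-SET7_LOBE against WT 103 rose and 31 fell, or 520 and 258 with DESeq2. In PR-SET7_LOBE against DEN_WT 884 rose and 1307 fell, or 1731 and 1666 with DESeq2. The cause of these shifts was not tested, beyond the fewer libraries in each such fit. Where 1 library of a group was left, it was assumed to vary like the others. With upper-quartile scaling the median log2 fold change of all genes was 0.22 in PR-SET7_LOBE against WT, not 0.06, and 0.16 in PR-SET7_LOBE against DEN_WT, not -0.01. The labels do not say that replicate numbers pair the libraries. Deviations of same-numbered libraries correlated at 0.16 and 0.112 between PR-SET7_LOBE and WT, and at 0.059 between DEN_WT and WT. In a group of 2 libraries the deviations mirror each other, so these values cannot decide on pairing. With the replicate block, which stands for a shared number only, the counts were 4, 15 and 7. Over all genes 199 rose and 55 fell, 2307 rose and 1358 fell, and 1269 rose and 1948 fell, in the same order. The pseudocounts of 0.5 and 8, TMM scaling and both edgeR fits were chosen after seeing the data.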
